A study of Mus musculus with 4 samples.

Results

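The open chromatin of BMP genes was examined in mouse rib chondrocytes. They were chosen by name as ligands (Bmp2, Bmp4, Bmp6, Bmp7 and Gdf5), type I receptors (Bmpr1a and Bmpr1b) and extracellular antagonists (Nog, Grem1 and Chrd), 10 of 20155 protein-coding genes with a position in both annotations used. A promoter peak was a peak whose summit, its highest point, lay within 1 kb of the 5′ end of the gene, and the locus was the gene body plus 100 kb on each side. A locus also holds other genes, so a peak in it is not assigned to the BMP gene.

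The data were ATAC-Seq, which reads open chromatin from the sites where the Tn5 transposase inserts adapters. There were 4 libraries of primary chondrocytes from rib cartilage of newborn mice. Cho had 2 replicates, named Cho Rep1 and Cho Rep2 here, with no genotype in the labels. WT had 1 library, and E160/E308_Del had 1 library of cells homozygous for the loss of both E160 and E308, a pair of elements upstream of Sox9. The deletion was made by CRISPR/Cas9 in C57BL/6J embryos, in every tissue, and cells within 2 passages were used. Each genotype was thus a single library, so WT against the deletion compares 2 libraries, with no replicate check and no test. A peak measures how often chromatin was cut in bulk cells, so fewer cells with an open site and less opening per cell cannot be told apart.

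BMPs are secreted dimers of the TGF-β family. They bring together type I and type II serine/threonine kinase receptors on the cell surface, and the type I receptor phosphorylates Smad1, Smad5 and Smad9, which enter the nucleus with Smad4 and raise genes such as the Id family. Noggin, gremlin and chordin bind the ligands outside the cell and keep them from the receptors. In cartilage the pathway is needed for the first condensation of mesenchyme and for the growth of chondrocytes, and Gdf5 marks the cells that form joints.

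The lists were not made alike. They held 76242 peaks in Cho Rep1, 148330 in Cho Rep2, 90971 in WT and 169591 in the deletion. The most frequent background under a peak was 1.37, 1.96, 0.361 and 0.626 tags in the same order, so the deletion library was deeper than WT. In Cho Rep1 at least 99.9% of peaks had that one constant background, whereas 40.4% of Cho Rep2 peaks, 26.7% of WT peaks and 39.7% of deletion peaks lay within 1% of it and the rest had a local one. Cho Rep2 was in positions of GRCm38 and the others in positions of NCBIM37. The labels held: E160 had a peak in Cho Rep1 and 2 in WT but 0 in the deletion, and the highest fold enrichment at E308 was 15.4 in WT and 3.07 in the deletion. Of 10 chondrocyte markers, 5, 9, 8 and 8 had a promoter peak in the 4 libraries in the same order, Comp in none. Fibroblast markers had 3, 4, 4 and 5 of 5, osteoblast markers 1, 3, 2 and 3 of 5, endothelial markers 2, 1, 2 and 2 of 5, and muscle markers 0, 1, 1 and 2 of 5. No blood or keratinocyte marker of 5 each had one.

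The chromatin at the 5′ end was open at most of the BMP genes. A promoter peak was called at 8 of 10 genes in Cho Rep1, where 58.6% of all protein-coding genes had one, at 8 in Cho Rep2 (64.7% of all), at 9 in WT (62.1%) and at 9 in the deletion (67.7%). The same 7 genes, Bmp2, Bmp6, Bmp7, Bmpr1a, Bmpr1b, Nog and Grem1, had one in every library, as did 52.7% of all protein-coding genes. Without Cho Rep1 there were 8, with Gdf5 (57.4% of all). Without Cho Rep2 there were 8, with Chrd (56.4% of all). Bmp4 was the only one with none in any library, as was the case at 28.2% of all genes. The peaks were not strong. Fold enrichment, the summit pileup over the background with 1 added to each, had a median over the called BMP promoters of 10.98, 8.18, 10.1 and 10.2 in Cho Rep1, Cho Rep2, WT and the deletion, where the median over all called promoters was 12.2, 17.7, 12.7 and 12.5.

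**Figure D1:**
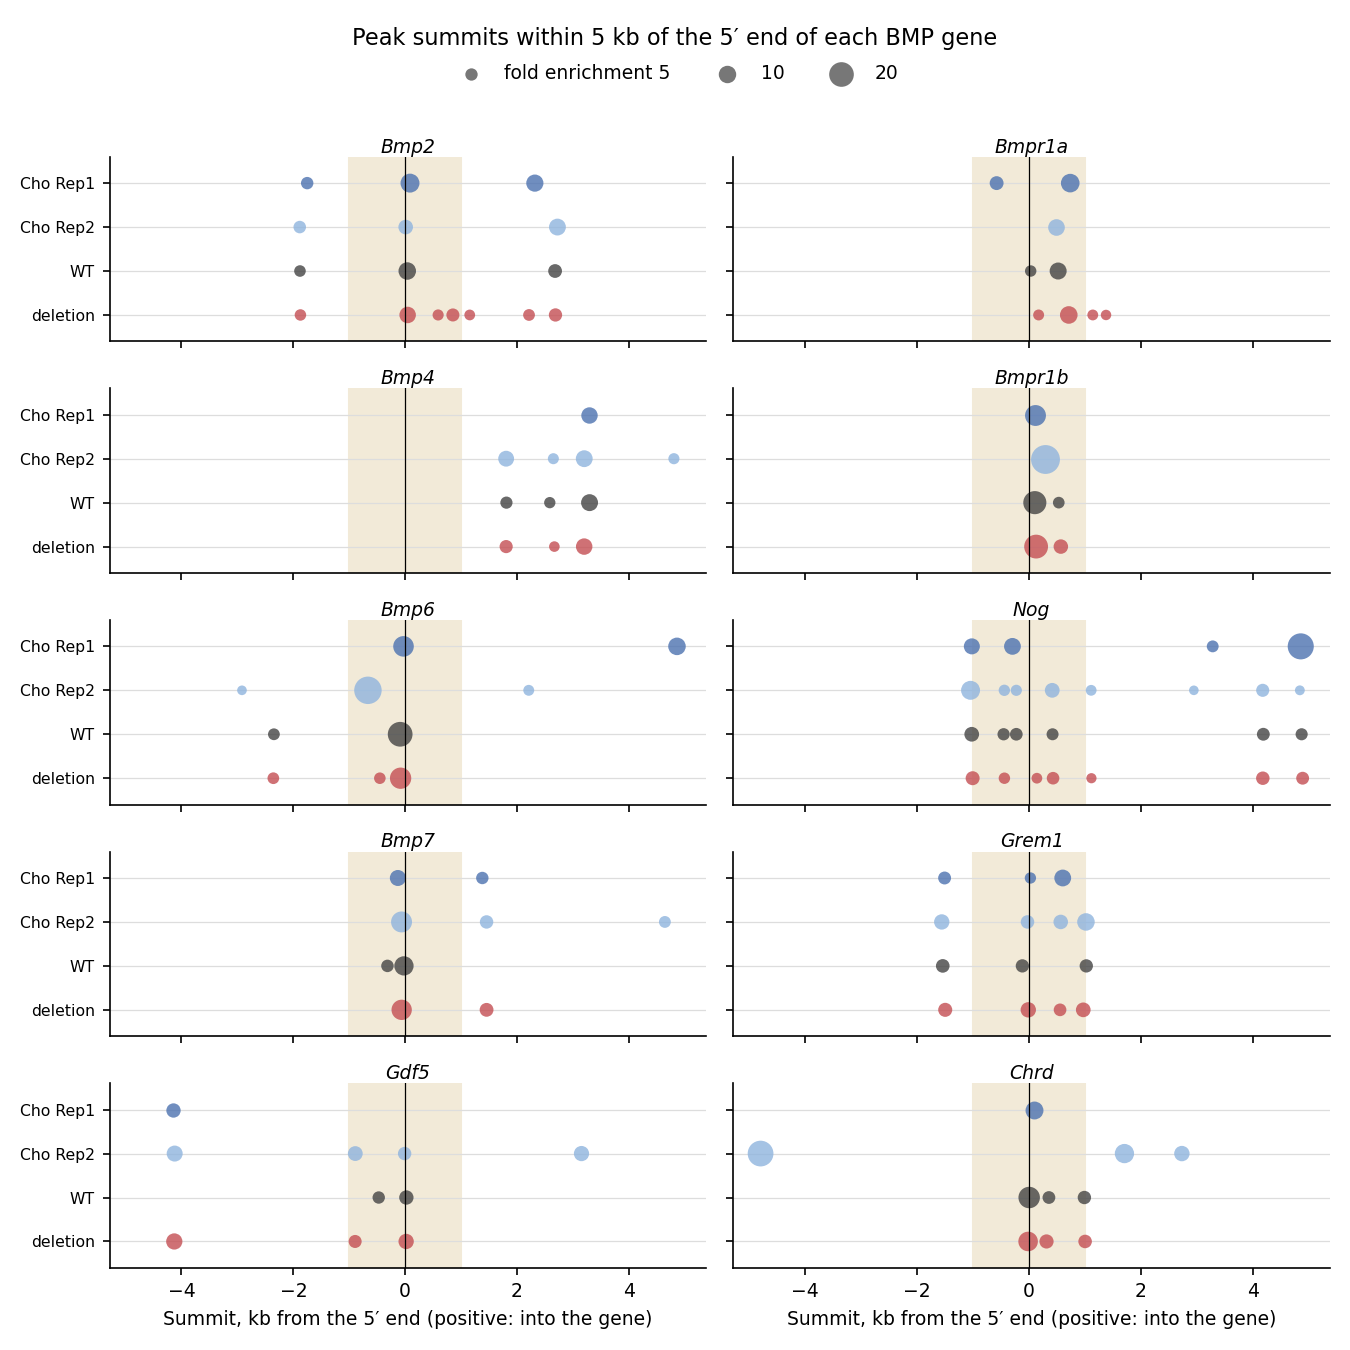
Peak summits within 5 kb of the 5′ end of each of the 10 BMP genes, in 4 libraries. The x axis is the distance in kb, positive into the gene, the area of a point is its fold enrichment, and the shaded band is the 1 kb window on each side. Bmp4 has no summit in the band in any library, Nog has a row of summits on both sides of its 5′ end, and the Cho Rep2 summits of Chrd are shifted because its annotated 5′ end lies further upstream in that build.

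Among the ligands, Bmp6 had the strongest promoter. Its fold enrichment was 13.9 in Cho Rep1, 24.8 in Cho Rep2, 20.1 in WT and 14.9 in the deletion. WT placed it at percentile 94.4 of all called promoters, Cho Rep2 at 75.8, the deletion at 68.8 and Cho Rep1 at 56.7. Bmp7, a ligand of kidney and skeletal development, had 8.45, 14.4, 12.2 and 13.6, with summits 22 to 131 bp upstream of the 5′ end. The 4 libraries placed it between percentiles 30.9 and 58.7. Bmp2, a ligand needed for endochondral bone growth, had 11.8, 7.01, 10.1 and 8.94, and its summits lay 9 to 86 bp inside the gene. It stood at percentile 47.7 in Cho Rep1 and only at 10.9 in Cho Rep2. Bmp2 also had flanking summits in every library, at 1.75 to 1.89 kb upstream and 2.32 to 2.72 kb inside.

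Gdf5 had a weak promoter peak in 3 libraries. WT had 6.77 and the deletion 7.72 (fold enrichment), with summits 21 and 17 bp inside the gene, and 7.24 in Cho Rep2. The Cho Rep2 value came from a summit 892 bp upstream, and a peak of 5.90 there had its summit 10 bp upstream. Cho Rep1 had its closest summit 4144 bp upstream. A peak 4.12 to 4.14 kb upstream was called in both Cho libraries and in the deletion, with fold enrichment of 6.76, 8.43 and 8.68, and not in WT.

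Bmp4, a ligand expressed in perichondrium, was the only gene with no summit within 1 kb in any library. Its nearest summit was 3292 bp inside the gene in Cho Rep1, 1805 bp in Cho Rep2, 1810 bp in WT and 1805 bp in the deletion. A peak in an intron of Bmp4, about 3.2 to 3.3 kb inside the gene, was present in all 4 libraries with fold enrichment of 8.87, 9.33, 9.45 and 8.91. The values differed by less than 1 between libraries. The WT interval was chr14:47006940-47007287 of NCBIM37. A weaker intronic peak 1.80 to 1.81 kb inside had 8.27 in Cho Rep2, 4.90 in WT and 5.70 in the deletion.

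The sequence around the Bmp4 and Gdf5 5′ ends held fewer CpGs than at the other BMP genes. In the 501 bases centred on the 5′ end (NCBIM37), the ratio of observed to expected CpG was 0.486 at Bmp4 and 0.454 at Gdf5, the lowest of the 10. It was 0.689 at Chrd and 0.843 to 1.04 at the other 7. The median was 0.622 over 20150 promoters, 0.790 over the 12521 with a WT peak and 0.203 over the 7629 without. GC content was 62.5% at Bmp4 and 49.9% at Gdf5, and from 55.7% to 76.0% at the other 8. Bmp4 was the gene with no promoter peak and Gdf5 the one not called in Cho Rep1, which over 10 genes is a description. Promoters of 4 of the genes with a RefSeq promoter sequence are shown, which Bmp2, Bmp7, Gdf5 and Nog lacked. Bmp4 had no promoter peak, and Bmpr1b had a start with a peak in 2 libraries only. Grem1 and Chrd had WT summits 117 bp upstream and 3 bp inside the RefSeq start, which does not set them apart from the other genes. Each run is the 250 bases before a RefSeq start in GRCm38, 5′ to 3′ along the gene: chr14:46390670-46390919 (minus strand), chr3:141982265-141982514 (minus), chr2:113758649-113758898 (minus) and chr16:20732877-20733126 (plus). Capitals mark matches on either strand to any of 6 motifs searched: AACAAT (the SOX core), TGANTCA (AP-1), TGTGGT (RUNX), GGAATG (TEAD), GGCGCC (a GC element bound by Smads) and CAGAC (the SMAD box).
Bmp4: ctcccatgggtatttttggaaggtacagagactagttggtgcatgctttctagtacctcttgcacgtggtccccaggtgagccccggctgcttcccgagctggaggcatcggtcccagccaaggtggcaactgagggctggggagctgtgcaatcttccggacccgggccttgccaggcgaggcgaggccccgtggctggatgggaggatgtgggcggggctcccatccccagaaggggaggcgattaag
Bmpr1b: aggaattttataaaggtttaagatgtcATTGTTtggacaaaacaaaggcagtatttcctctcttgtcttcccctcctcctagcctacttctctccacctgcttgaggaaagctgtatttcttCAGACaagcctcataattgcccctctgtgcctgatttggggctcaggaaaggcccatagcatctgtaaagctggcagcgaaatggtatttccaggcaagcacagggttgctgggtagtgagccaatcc
Grem1: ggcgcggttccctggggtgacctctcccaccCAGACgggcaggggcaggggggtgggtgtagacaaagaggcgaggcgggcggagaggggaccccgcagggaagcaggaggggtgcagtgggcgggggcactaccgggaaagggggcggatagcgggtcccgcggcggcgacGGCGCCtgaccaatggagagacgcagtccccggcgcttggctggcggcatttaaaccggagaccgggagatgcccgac
Chrd: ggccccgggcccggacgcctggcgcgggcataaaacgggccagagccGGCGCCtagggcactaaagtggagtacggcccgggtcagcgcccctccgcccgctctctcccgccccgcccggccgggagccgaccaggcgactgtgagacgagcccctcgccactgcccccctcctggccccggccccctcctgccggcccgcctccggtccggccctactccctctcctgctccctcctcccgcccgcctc
The Bmp4 run held none of the 6 motifs and 11 CpGs, the Bmpr1b run held the SOX core and the SMAD box and 1 CpG, the Grem1 run held the GC element and the SMAD box and 24 CpGs, and the Chrd run held the GC element and 28 CpGs. Over 32851 RefSeq promoters, the same 250 bases held the SOX core in 9.42%, AP-1 in 6.75%, RUNX in 14.05%, TEAD in 12.6%, the GC element in 9.59% and the SMAD box in 42.2%.

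By fold enrichment, the receptor Bmpr1b had the strongest promoter of the 10 genes in every library but WT, where Bmp6 was higher. Its fold enrichment was 14.4 in Cho Rep1, 27.4 in Cho Rep2, 17.6 in WT and 18.7 in the deletion, with summits 104 to 286 bp inside the gene. The libraries placed it at percentiles 58.4, 83.7, 83.6 and 90.0. By summit pileup over the library background its percentiles were lower, 58.4 in Cho Rep2, 51.3 in WT and 56.6 in the deletion. By that measure Bmp6 was above Bmpr1b in Cho Rep2 (118 against 81.8), WT (127 against 83.1) and the deletion (83.1 against 71.9). Only in Cho Rep1 was Bmpr1b above Bmp6 (24.1 against 23.4). Bmpr1b, the type I receptor that GDF5 prefers, has a RefSeq start 187 kb inside the gene, the one whose upstream bases are shown above. That start had a peak in Cho Rep2, with fold enrichment 20.4 and its summit 19 bp inside, and in the deletion, with 11.1 and its summit 15 bp upstream. None was called there in Cho Rep1 or WT, whose lists were shorter than those of Cho Rep2 and the deletion. The part of list length in this was not tested.

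Bmpr1a, the other type I receptor of cartilage, had fold enrichment of 11.4, 9.11, 9.50 and 10.2 in Cho Rep1, Cho Rep2, WT and the deletion. Its summits lay 474 to 737 bp inside the annotated 5′ end, and 58 to 316 bp upstream of the RefSeq start. Its percentiles ran from 17.3 in Cho Rep2 to 45.8 in Cho Rep1.

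The antagonists Nog and Grem1 had low and spread promoter peaks. Nog, which encodes noggin, had fold enrichment of 9.29 in Cho Rep1, 7.17 in Cho Rep2, 5.30 in WT and 5.24 in the deletion, at percentiles 35.4, 11.5, 5.45 and 6.22. The highest summits fell at different places, 296 bp upstream, 415 bp inside, 227 bp upstream and 430 bp inside. Within 5 kb of its 5′ end Nog had 4 peaks in Cho Rep1, 8 in Cho Rep2, 6 in WT and 7 in the deletion. One of these lay just outside the window, 1.01 to 1.04 kb upstream, with fold enrichment of 8.45, 11.8, 7.12 and 6.43, higher than the promoter peak in Cho Rep2, WT and the deletion. The local background under the Nog peak was high, 5.596 times the library background in WT and 7.25 times in the deletion, where the median over called promoters was 3.37 and 3.31. By summit pileup over the library background, Nog stood at percentile 19.4 in WT and 28.7 in the deletion.

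Grem1, which encodes gremlin, had fold enrichment of 9.29, 6.94, 5.80 and 7.77 in the same order. The highest summits in the window were 603 and 567 bp inside the gene in the Cho libraries, and 119 and 13 bp upstream in WT and the deletion. Lower peaks had summits 25 bp inside in Cho Rep1, 27 bp upstream in Cho Rep2 and 0.555 kb inside in the deletion. These places thus did not separate the Cho libraries from the deletion. Just outside the window, a summit 1.02 kb inside had 10.1 in Cho Rep2 and 5.85 in WT, higher than the promoter peak in both. In the deletion a peak 0.97 kb inside, within the window, had 7.12 and was lower. Chrd, which encodes chordin, had 10.6 in Cho Rep1, 15.2 in WT and 12.6 in the deletion, with summits between 16 bp upstream and 85 bp inside. In Cho Rep2 its nearest summit lay 1706 bp inside the GRCm38 5′ end, which is further upstream than in NCBIM37. Measured from the RefSeq start found in both builds, that peak had fold enrichment 12.2 and its summit 4 bp inside, so Chrd was open at the same start in all 4 libraries.

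**Figure D2:**
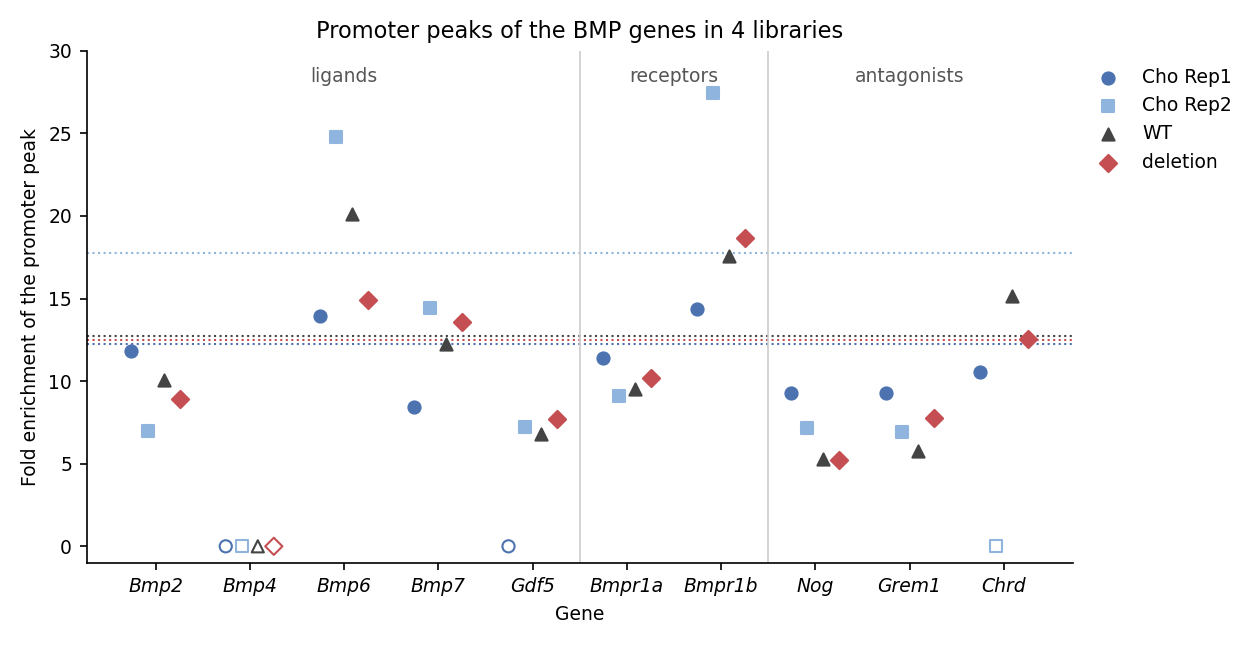
Fold enrichment of the strongest peak within 1 kb of the 5′ end of each BMP gene. Each point is 1 library, an open point at 0 means that no peak was called, and each dotted line is the median over all called promoters of the library of that colour. Bmp6 and Bmpr1b lie above the line of their own library in every case. Bmp2, Bmpr1a, Nog and Grem1 lie below it in every case, and so does Gdf5 where it was called.

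Over the 2 Cho replicates, mean fold enrichment was 20.9 ± 9.24 (SD, n = 2) at Bmpr1b, 19.4 ± 7.68 at Bmp6, 11.4 ± 4.24 at Bmp7, 10.3 ± 1.62 at Bmpr1a, 9.42 ± 3.40 at Bmp2, 8.23 ± 1.502 at Nog and 8.11 ± 1.66 at Grem1. The 2 highest differed from each other by less than their SDs, and so did neighbours from Bmp7 down. Cho Rep1 was made with a constant background, so these SDs hold that difference as well.

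The other genes of the pathway were read from a list of 51. A promoter peak was called at 38 of 51 in Cho Rep1 (74.5%), 44 in Cho Rep2 (86.3%), 40 in WT (78.4%) and 46 in the deletion (90.2%), and at 36 in all 4, where the share over all genes was 52.7%. All 8 effectors, the Smads and Smurfs, and all 7 targets, Id1 to Id4, Msx1, Msx2 and Dlx5, had one in every library. The other ligands had 4, 6, 5 and 7 of 9, the other receptors and coreceptors 6, 7, 7 and 8 of 9, the other antagonists 10, 13, 10 and 13 of 14, and the processing enzymes 3 of 4 each time. No library had one at 5 genes, where 28.2% of all genes had none: Bmp10 and Gdf2, ligands of heart and liver, Hjv, a coreceptor of liver and muscle, Sost, the osteocyte antagonist, and Furin, a protease that cleaves BMP precursors. Furin did have a peak within 1 kb of another annotated transcript start in each library, with fold enrichment of 7.60, 4.87, 6.58 and 8.52.

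By the 4 percentile ranks, with 0 where no peak was called, each BMP gene had a nearest gene in that list. Bmp6 and Bmpr1b were both nearest to Smad1, at distances of 22.2 and 18.1, Nog and Grem1 both to Fstl3, a follistatin-like antagonist, at 14.6 and 14.4, and Bmp2 and Bmpr1a both to Bmper, at 12.9 and 7.72. Bmp7 was nearest to Acvr2a at 17.9, Gdf5 to Chrdl1 at 14.8 and Chrd to Dlx5 at 29.3. Chrd entered with 0 in Cho Rep2 because its annotated 5′ end lies further upstream in GRCm38. A peak was called at its RefSeq start there, so the Chrd match and distance rest on that annotation. Bmp4 was at 0 from each of the 5 listed genes with no peak in any library, so it had no single nearest gene. The libraries give 4 points a gene, so these distances are a description.

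The loci of the 10 genes held 151 peaks in Cho Rep1, 326 in Cho Rep2, 181 in WT and 340 in the deletion. Pooled over the 10 windows, that was 5.596, 12.1, 6.71 and 12.6 peaks per 100 kb. The median of the single-gene densities in the same windows of all genes, which is not a pooled value, was 4.35, 9.03, 5.76 and 10.4. In WT, Bmp2, Bmp4, Bmp6, Bmpr1b and Grem1 stood at percentiles 35.2 to 49.4 of all genes. The other loci stood at 56.0 to 82.4. Bmpr1a was the densest in WT, with 30 peaks at percentile 82.4 of all genes, and in the deletion, with 56 at percentile 92.2. Gdf5 was the densest in Cho Rep2, with 34 peaks at percentile 90.0, although Cho Rep1 had 8, at percentile 44.1. Bmp4 was the sparsest in both Cho libraries and the deletion, with 6, 18 and 18 peaks, and had 9 in WT. Bmpr1b, the longest gene, had 29, 54, 22 and 51 peaks. In WT 20 of the 181 peaks lay within 1 kb of the 5′ end of another protein-coding gene, among them Rae1 and Rbm38 beside Bmp7, Uqcc1 and Cep250 beside Gdf5, and Psmd2 and Polr2h beside Chrd. Of the 145 WT peaks over 1 kb from any 5′ end, 62 were in introns, 15 in exons and 68 between genes.

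**Figure D3:**
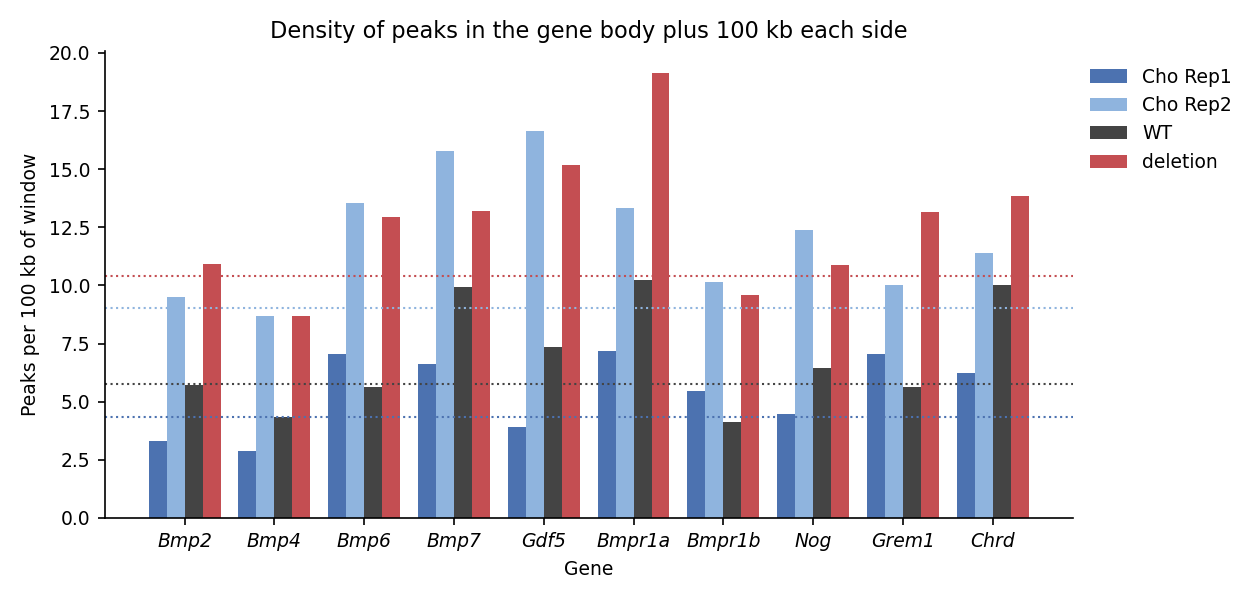
Peaks per 100 kb in the gene body plus 100 kb on each side of the 10 BMP genes. Bars are the 4 libraries and each dotted line is the median over all protein-coding genes in the library of that colour. Cho Rep2 and the deletion, the longer lists, stand above Cho Rep1 and WT at every gene.

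Each locus had a strongest WT peak over 1 kb from any 5′ end. At Bmpr1a it lay between genes, 139 kb downstream of the 5′ end, with fold enrichment of 17.2 in WT, 15.6 in the deletion, 23.6 in Cho Rep1 and 23.2 in Cho Rep2. At Chrd it lay in an intron of Eif4g1, 55.0 kb upstream, with 16.9, 17.4, 10.1 and 29.4 in that order. At Gdf5 it lay in an intron of Uqcc1, 66.2 kb downstream, with 14.6, 16.2, 12.2 and 13.8. At Bmp6 it lay 24.6 kb upstream, with 13.5, 15.3, 9.29 and 25.1. By WT fold enrichment each of these 4 was above at least 6 of the 9 BMP promoter peaks. Each was picked as the strongest distal WT peak of its locus, so the comparison favoured the distal sites in advance. Fold enrichment also divides by the local background, whose median at called WT promoters was 3.37 times the library background.

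At Grem1 the strongest WT peak lay in an intron of Fmn1, the formin gene next to it, 68.7 kb past the Grem1 5′ end, with 12.6 in WT, 12.0 in the deletion, 21.5 in Cho Rep1 and 25.4 in Cho Rep2. At Bmpr1b it lay in an intron of Bmpr1b itself, 228 kb inside the gene, with 12.6, 17.4, 27.4 and 20.3. At Bmp4 it lay 17.9 kb upstream, with 9.56, 18.7, 4.22 and 19.6, the highest ratio of the strongest to the weakest library among the 7 sites found in every library. The other 3 were not matched in both Cho libraries. Bmp2 had one 97.97 kb downstream, with 12.3 in WT, 12.2 in the deletion and 19.9 in Cho Rep2. Bmp7 had one 115 kb past its 5′ end, with 12.5, 18.4 and 19.5 in the same libraries. Nog had one 95.7 kb downstream, with 11.2 in WT, 13.4 in the deletion and 8.02 in Cho Rep1.

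The 7 distal sites found in all 4 libraries are shown as the open sequences of these loci, each as the 101 bases centred on the WT summit, plus strand of NCBIM37, with capitals for the motifs named above: chr14:47028184-47028284 (Bmp4), chr13:38412374-38412474 (Bmp6), chr2:155704803-155704903 (Gdf5), chr14:35177026-35177126 (Bmpr1a), chr3:141603990-141604090 (Bmpr1b), chr2:113530040-113530140 (Grem1) and chr16:20678198-20678298 (Chrd).
Bmp4 locus: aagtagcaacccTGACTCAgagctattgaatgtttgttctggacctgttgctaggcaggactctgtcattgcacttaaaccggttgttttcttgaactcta
Bmp6 locus: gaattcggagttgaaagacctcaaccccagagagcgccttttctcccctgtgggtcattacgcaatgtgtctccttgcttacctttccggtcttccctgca
Gdf5 locus: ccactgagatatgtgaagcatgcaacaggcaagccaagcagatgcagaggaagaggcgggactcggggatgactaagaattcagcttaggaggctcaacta
Bmpr1a locus: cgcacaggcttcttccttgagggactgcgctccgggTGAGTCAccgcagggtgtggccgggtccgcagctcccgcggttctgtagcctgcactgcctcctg
Bmpr1b locus: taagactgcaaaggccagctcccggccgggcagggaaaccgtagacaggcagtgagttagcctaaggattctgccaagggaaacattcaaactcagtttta
Grem1 locus: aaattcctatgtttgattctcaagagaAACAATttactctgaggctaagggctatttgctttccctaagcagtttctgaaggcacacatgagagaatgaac
Chrd locus: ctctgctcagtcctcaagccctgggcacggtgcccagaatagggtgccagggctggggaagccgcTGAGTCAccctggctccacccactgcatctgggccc
The Bmp4, Bmpr1a and Chrd sites held the AP-1 motif, the Grem1 site held the SOX core, and the Bmp6, Gdf5 and Bmpr1b sites held none of the 6. The Bmpr1a and Chrd sites were GC-rich, at 68.3% and 67.3%, and the Grem1 site was AT-rich, at 38.6% GC.

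Over all 125 distal peaks of the BMP loci paired between WT and the deletion, the same 101 bases held AP-1 in 20 (16%), where 17.0% of 67771 paired distal peaks of the genome did. The SMAD box was in 32 (25.6% against 25.7%), RUNX in 16 (12.8% against 14.1%) and TEAD in 11 (8.80% against 12.3%). The SOX core was in 6 (4.80% against 2.48%) and the GC element in 5 (4% against 2.44%). The AP-1, SMAD box and RUNX shares were near those of all distal peaks. The TEAD share was lower, on 11 sites, and the SOX core and GC element shares were higher, on only 6 and 5 sites. None of these differences was tested.

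The study deleted E160 and E308 to ask what they do for Sox9, and the WT and deletion lists were compared at the BMP loci. The deletion had 1.88 times as many peaks there as WT, and the full lists differed by 1.86 times. Every locus had more, from 1.33 times at Bmp7 to 2.33 times at Grem1. With the same number of strongest peaks taken from each list the ratio was 0.972. Of the 181 WT peaks, 170 (93.9%, 95% exact interval 89.4 to 96.9) were overlapped by a deletion peak, and 95.9% of all WT peaks were. Of the 340 deletion peaks, 158 (46.5%, 41.1 to 51.9) were overlapped by a WT peak, and 49.4% of all deletion peaks were. The depth of the lists moves with these counts, and its part in them was not tested.

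Peaks found in both libraries had nearly the same height. There were 156 pairs, each peak being the strongest overlap of the other, and heights were compared as the summit pileup over the library background. The median log2 ratio of the deletion over WT was 0.01, and over all 83096 pairs of the genome it was −0.03. Of the 156 pairs, 2 were at least 2-fold higher in the deletion, as were 1.93% of all pairs, and 1 was at least 2-fold lower, as were 1.5% of all. For 125 distal pairs the median was 0.01, the same as over all distal pairs, and for 31 pairs within 1 kb of a 5′ end it was −0.08, where it was −0.21 over all such pairs.

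**Figure D4:**
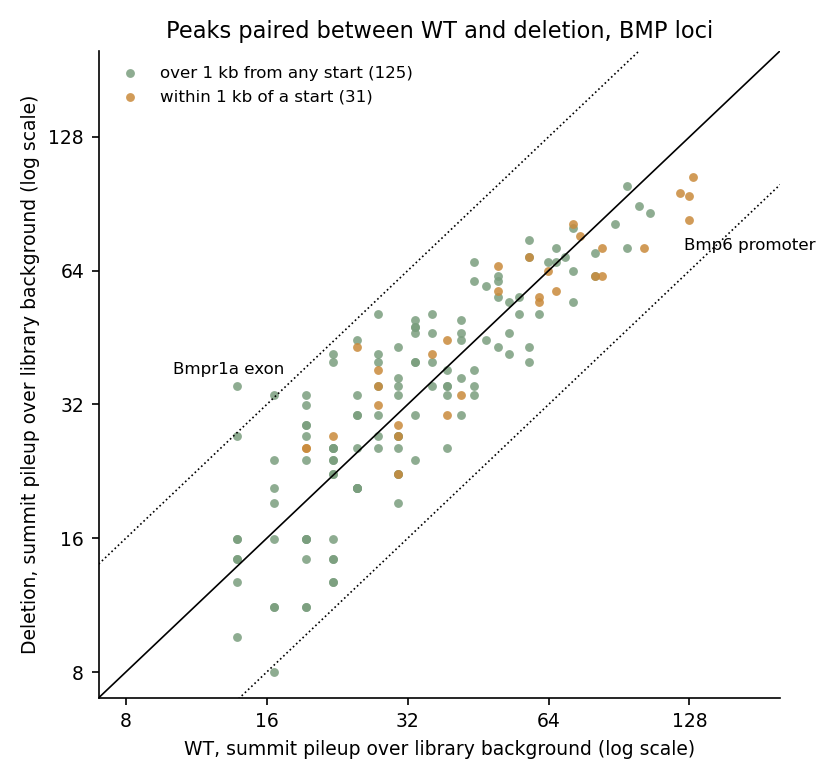
The 156 peaks of the BMP loci paired between WT and the deletion. Both axes are the summit pileup over the library background on a log scale, the solid line is equality and the dotted lines are 2-fold; green points lie over 1 kb from any protein-coding 5′ end and orange points within it. The points lie along the line, with 2 above the upper dotted line and 1 below the lower one.

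At the promoters themselves, the height in the deletion over that in WT was 0.891 at Bmp2, 1.003 at Bmp7, 0.891 at Gdf5, 0.865 at Bmpr1a, 0.865 at Bmpr1b, 0.750 at Chrd, 1.08 at Nog and 1.38 at Grem1, and the 95% interval of each, which covers counting error only, held 1. Nog was not a comparison of one site, since its WT and deletion intervals did not overlap. At Bmp6 the interval left out 1. The Bmp6 summit pileup was 46 tags in WT and 52 in the deletion, which gave a ratio of 0.652 (95% interval 0.430 to 0.991). Its log2 ratio was −0.62, and the median over 12480 promoters called in both libraries was −0.26. The Bmp6 interval held the ratio of that median, so these counts did not separate Bmp6 from the median promoter. The interval is too wide to show that Bmp6 was like other promoters, and its rank among the 12480 ratios is not given here. Bmp6 was the only 1 of the 156 pairs whose interval left out 1, and the intervals were not adjusted for their number.

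The largest differences rested on few tags. Among pairs with at least 20 tags in sum, the highest ratio was at an exon of Bmpr1a, chr14:35260996-35261073 (NCBIM37), 55.5 kb inside the gene, with 5 tags in WT and 22 in the deletion, a ratio of 2.54 (0.938 to 8.58). Its fold enrichment was 3.82 in WT, 9.92 in the deletion and 19.4 in Cho Rep1. Next came a peak in an intron of Pdlim5, 82.8 kb upstream of Bmpr1b, with 6 and 21 tags and a ratio of 2.02 (0.788 to 6.11), and one 150 kb past the 5′ end of Bmp7, with 5 and 17 tags and 1.96 (0.694 to 6.80). The lowest ratios were 0.629 (0.254 to 1.57) at a peak 74.3 kb downstream of the Nog 5′ end, with 11 and 12 tags, then the Bmp6 promoter, then 0.659 (0.301 to 1.46) at a peak 98.9 kb upstream of Bmp6, with 14 and 16 tags. All but the Bmp6 promoter had intervals that held 1. The peaks were paired with a Cho Rep1 summit within 150 bp in 72 of the 156 cases, with a Cho Rep2 summit in 129 and with both in 67. The same shares over all pairs of the genome were not computed, so these counts are a description.

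Peaks called in only 1 of WT and the deletion were about as high at the BMP loci as elsewhere. The 11 in WT had a median fold enrichment of 5.15, where all 3697 such peaks had 4.93, and at most 7.57, and 5 of them had a summit in either Cho library. The strongest was 49.2 kb upstream of Bmp2 (7.57), followed by one in an intron of Unc5c within the Bmpr1b window and one in an intron of Scg5 within the Grem1 window, both at 7.35. The 182 in the deletion had a median of 4.92, as had all 85790, and at most 11.7, and 112 of them had a summit in a Cho library. The strongest lay in an intron of Bmp7, 33.97 kb inside the gene, at chr2:172731759-172732060 (NCBIM37), with 11.7 in the deletion, 7.60 in Cho Rep1 and 17.2 in Cho Rep2. The second was the one at the inner RefSeq start of Bmpr1b, with 11.1. The third place, at 10.5, was shared by a peak 26.4 kb past the 5′ end of Bmp4 and one in an intron of Fmn1, 110 kb past that of Grem1. Each was absent from the shallower WT list, and the tags behind them in the deletion were 18, 17, 16 and 16. The share with a Cho summit over all such peaks of the genome was not computed, so the counts of 5 and 112 are a description.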

How the data were processed

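ATAC-Seq was measured in 4 mouse libraries, 2 of Cho and 1 each of WT and E160/E308_Del, grouped by title or genotype label. Per the study methods and the submitters' processing notes, the authors preprocessed reads with fastp, aligned them with Bowtie2 2.4.4 to mm9, used Picard (2.20.7 in the notes, another version in the methods) and SAMtools 1.9, and called peaks with MACS2 2.2.4 at q 0.05. Each deposited peak has a fold enrichment, the ratio (pileup + 1) / (background + 1) at the summit. It also has, from the authors, −log10 of its p-value and q-value, and a whole-number score made by multiplying the −log10 q by 10. Each list was read as called on 1 library.

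Where an interval was listed more than once, the entry of highest fold enrichment was kept. Cho Rep2 was read as GRCm38, though the methods name mm9, since it holds sequences of that build. Gene positions were GENCODE vM1 (NCBIM37) and RefSeq (GRCm38), with strands from GENCODE by symbol, and no coordinates were converted. Cho summits were matched to WT or deletion summits within 150 bp by distance from a RefSeq start found once in both builds (6 genes) or from the 5′ end. RefSeq promoter sequences matched 6 of the 10 genes, and Bmp2, Bmp7, Gdf5 and Nog had none. The whole summit pileup and background were solved from the fold enrichment and p-value (Poisson), which met both within 0.001 for at least 99.9% of peaks in every library, and the solution was tested on simulated data. Total read counts were not given in the sources used here. Exact (Clopper-Pearson) intervals cover counting error only, since tags after PCR are not independent molecules. With 1 library a genotype, no test was made. Python 3.11.15, pandas 2.3.3 and scipy 1.17.1 were used.

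The genes and lists were chosen with earlier results of these data known. Genes and sites were named by a rule: all 10 promoters; the strongest distal WT peak of each locus; the 3 highest and 3 lowest pair ratios with at least 20 tags; the 3 strongest peaks of only 1 library; listed genes with no promoter peak anywhere; and the listed gene nearest to each member by percentile ranks. The peak upstream of Gdf5, the intronic Bmp4 peaks, the peak beside the Nog window and the further Grem1 peaks were chosen after their values were seen. The motifs were as well.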

Additional observations from a re-analysis of the deposited data

How the results depend on the processing

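Of 92 recomputed counts, ratios and shares, 75 stayed close to the reported value (counts within 1.5 times, others within their 95% interval). Some of the 75 could not change. Cho Rep1 was the shortest list, so cutting all lists to its length left its counts as they were. Only Cho Rep1 listed an interval more than once, so counting every summit entry left the other lists and their ratio unchanged. The ratio of deletion to WT locus peaks turned from 1.88 to 0.972 with the deletion list cut to its strongest peaks at the length of the WT list, and the overlapped share was then 72.9% of WT and 68.8% of deletion peaks. With all 4 lists cut to the length of the shortest, Cho Rep2 called 4 member promoters, and locus peaks were 148 in Cho Rep2, 152 in WT and 138 in the deletion. An overlap of at least 50% of the peak gave 34.4% of deletion peaks. With promoter summits allowed within 2 kb, 8, 10, 10 and 10 members were called in Cho Rep1, Cho Rep2, WT and the deletion. Bmp4 then lacked a promoter peak in Cho Rep1 only. Narrower windows held fewer peaks by construction: 98, 210, 120 and 214 with 50 kb on each side, and 71, 146, 78 and 145 with 20 kb, in Cho Rep1, Cho Rep2, WT and the deletion. The median log2 ratio of pairs was 0.22 by fold enrichment and 0.73 by −log10 q, which move with background and depth, where all pairs of the genome gave 0.26 by fold enrichment. Leaving out 1 Cho replicate gave promoter fold enrichment of 8.45 to 14.4 at Bmp7, 13.9 to 24.8 at Bmp6, 14.4 to 27.4 at Bmpr1b, 7.01 to 11.8 at Bmp2, 9.11 to 11.4 at Bmpr1a, 7.17 to 9.29 at Nog and 6.94 to 9.29 at Grem1. Of 28 recomputed Cho means, the 14 that left out 1 replicate stayed within 1 SD. With n = 2 each replicate always lies within 1 SD of the mean, so that outcome was fixed in advance. The other 14 were percentile ranks and pileups, which are on other scales, so these recomputed means do not measure stability. A further 2 alternatives were chosen after seeing the data, the RefSeq start in both builds for promoter calls and the pileup over library background for Cho means. No paired analysis was possible because each genotype was a single library. With summit pileups in WT down to 4 tags, a difference at a single weak peak was not detectable at this depth.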
